A study of Mus musculus with 6 samples.

Results

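The progesterone receptors measured here are the nuclear receptor Pgr, the membrane-associated components Pgrmc1 and Pgrmc2, and the membrane progestin receptors Paqr7 (mPR alpha), Paqr8 (mPR beta) and Paqr5 (mPR gamma). Members were found by gene symbol, and all 6 were among the 19288 genes of the count table. RNA-seq had given 6 libraries from subcutaneous tumours of LLC1, the Lewis lung carcinoma line of mouse. The tumours were grown in mice carrying a beta-hCG transgene (chorionic gonadotropin, the placental hormone, owes its specificity to this subunit). All hosts came from crosses of a C57BL/6 female, written CB57BL/6 in the labels, with a transgenic FVB male. In 2 libraries (transgenic tumours) the labels name the transgene and neither surgery nor treatment. In 2 libraries (vehicle tumours) the host was an ovariectomized transgenic female supplied with vehicle, and in 2 (progesterone tumours) an ovariectomized transgenic female supplied with progesterone. Supplementation ran for 28 days and tumours were removed 30 days after the cells were implanted. The labels give no age, no promoter for the transgene and no statement that each library came from a separate animal, so each p-value reflects library-to-library spread that may be technical. Tumour and host RNA are both of mouse and were counted together, so that fewer cells of a type and less RNA per cell cannot be told apart.

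Progesterone acts in cells along separate routes. Pgr is a ligand-activated transcription factor of the steroid receptor family that is held by HSP90 chaperones until it binds hormone, and its own transcription is known to depend on oestrogen receptor in uterus and breast. The PAQR proteins are multipass membrane receptors that respond to progestins rapidly, and Pgrmc1 and Pgrmc2 are small haem-binding membrane proteins of the cytochrome b5 type that also take part in sterol synthesis, haem handling and membrane traffic. PGRMC1 is often high in tumours, lung tumours among them.

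The measured picture was of tumours in which the nuclear receptor was near 0 in every library, whatever the host's hormone state, and the membrane-associated components were plentiful. Pgr had 5 reads in all 6 libraries together, out of 148891837 counted reads. Pgrmc1 and Pgrmc2 had 12981 and 13831. Levels are given below in CPM (the read count relative to library size, scaled by the TMM method of edgeR), and, where genes are set against each other, in CPM per kilobase of merged exon. No member passed the test in any of the 3 comparisons between groups.

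To show what stands before the genes at the ends of this range, the 250 bases upstream of the start in RefSeq's table are printed for Pgr, for the abundant Pgrmc1 and Pgrmc2, and for Paqr5, the other member near 0. All 6 members matched RefSeq's promoter table for GRCm38.p6, in which Paqr7 and Paqr8 have 2 starts each. The windows lie at chr9:8899583-8899832 on the plus strand for Pgr, chrX:36597943-36598192 on the plus strand for Pgrmc1, chr3:41083047-41083296 on the minus strand for Pgrmc2 and chr9:62026791-62027040 on the minus strand for Paqr5. Starts differ between RefSeq and the GENCODE annotation used for the gene positions below. By GENCODE the last 66 bases of the Paqr5 window lie inside the gene and 13 bases separate the Pgrmc1 window from it, while the Pgr and Pgrmc2 windows end at the start. Each is written 5′ to 3′ along the gene, and capitals mark the dinucleotide CG, the target of DNA methylation.
Pgr: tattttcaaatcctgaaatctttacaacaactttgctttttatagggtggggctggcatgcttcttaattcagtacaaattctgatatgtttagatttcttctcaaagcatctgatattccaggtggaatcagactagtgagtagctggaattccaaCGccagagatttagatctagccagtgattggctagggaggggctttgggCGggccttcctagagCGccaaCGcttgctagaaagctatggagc
Pgrmc1: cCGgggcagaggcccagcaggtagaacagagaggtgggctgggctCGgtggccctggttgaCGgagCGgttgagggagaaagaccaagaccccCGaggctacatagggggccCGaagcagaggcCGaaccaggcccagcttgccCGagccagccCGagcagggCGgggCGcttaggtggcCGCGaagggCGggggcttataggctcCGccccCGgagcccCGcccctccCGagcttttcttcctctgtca
Pgrmc2: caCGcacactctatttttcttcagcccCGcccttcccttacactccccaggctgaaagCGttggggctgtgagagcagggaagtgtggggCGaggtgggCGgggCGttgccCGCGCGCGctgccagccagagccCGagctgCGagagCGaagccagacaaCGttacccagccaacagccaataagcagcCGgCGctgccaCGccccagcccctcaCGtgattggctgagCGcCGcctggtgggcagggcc
Paqr5: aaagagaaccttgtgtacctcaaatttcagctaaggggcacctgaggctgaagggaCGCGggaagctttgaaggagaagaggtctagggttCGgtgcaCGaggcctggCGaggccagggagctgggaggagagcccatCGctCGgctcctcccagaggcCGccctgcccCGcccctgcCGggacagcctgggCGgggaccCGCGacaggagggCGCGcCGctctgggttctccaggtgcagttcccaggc

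The Pgr window held 4 CG dinucleotides, the Pgrmc1 window 18, the Pgrmc2 window 20 and the Paqr5 window 16, against a median of 6 over all 32851 windows of this length. A window with at least 4 was found for 62.2% of all, with at least 18 for 21.7% and with at least 20 for 17.9%. The 2 windows of Paqr7 held 7 and 18, and those of Paqr8 held 13 and 4. CG content did not follow level throughout, since Paqr5, with 25.4% of all windows having as many CG or more, was near 0 in these tumours. The hexamer TGTTCT, the core of the element bound by progesterone and glucocorticoid receptors, was searched on both strands. It was found in 16.1% of all windows, and among the members in that of Pgrmc1 and in both of Paqr8, 1 time each. The full palindrome, this hexamer 3 bases after its reverse complement, was in none of the members' windows and in 3 of all. The oestrogen response palindrome, GGTCA followed after 3 bases by its reverse complement, was in none of the members' windows and in 21 of all. The GC box GGGCGG, which itself contains a CG, occurred 1 time for Pgr, 4 times for Pgrmc1, 2 times for Pgrmc2 and 3 times for Paqr5, and in 32.7% of all windows. These matches describe letters in the windows and were not tested against the counts.

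Facts of the whole series that bear on the values are few. Library totals ran from 19526775 to 30083925 counts, and both extremes were vehicle tumours. Across the 13632 genes that passed the count filter, Spearman's rho between 2 libraries ran from 0.968 to 0.987, and within a group it was 0.969 in transgenic, 0.986 in vehicle and 0.974 in progesterone tumours. Transgenic library 2 and progesterone library 2 lay farthest from the mean of the 6, with a root mean square of 0.549 and 0.548 on the log2 scale against 0.419 to 0.465 in the others. Of the lung epithelial markers, the surfactant gene Sftpc had 0 or 1 reads and the club cell gene Scgb1a1 0 to 2 reads in each library, while the aspartic protease Napsa had 31 to 116 reads. The labelled lung origin was thus not marked by the first 2 of these genes. The other fixed lung markers, Nkx2-1 and Sftpb, were not in the count table.

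Pgr (ENSMUSG00000031870, chromosome 9, 8899833 to 8968611, plus strand, GRCm38) had 3 and 0 reads in the transgenic tumours, 2 and 0 in the vehicle tumours and 0 and 0 in the progesterone tumours. The highest library, transgenic library 1, reached 0.111 CPM, with an exact Clopper-Pearson 95% interval of 0.0229 to 0.325 CPM. By the rule of 3, a count of 0 allows up to 3 reads. That is 0.103 CPM in the library with the most usable reads, which itself had 2, and 0.159 CPM in the one with the fewest. The exact 95% intervals are wider, and in the libraries at 0 they reach 0.142 to 0.195 CPM. Summed over both libraries, progesterone tumours had 0 of 48846685 reads, vehicle tumours 2 of 49610700 and transgenic tumours 3 of 50434452. These groups are all at or under the limit that a count of 0 allows, so no fold is given and a difference was not detectable at this depth. Pgr did not pass the count filter and was not tested. No other annotated gene overlaps it. All intervals and limits cover counting error only, since the reads carry no molecular identifiers.

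Markers of mammary epithelium, a tissue that makes Pgr and can lie beside a subcutaneous graft, were read alongside. Of 10 fixed markers, 8 were in the table. The basal keratins Krt5 and Krt14 had 0 to 2 and 0 or 1 reads in each library, the alveolar factor Elf5 0 to 2 and the prolactin receptor Prlr 0 to 8. The keratins of simple epithelium, Krt8 and Krt18, carried nearly all of the summed level, which was 264 and 765 CPM in transgenic, 394 and 467 CPM in vehicle and 631 and 575 CPM in progesterone tumours. Epcam had 1 to 6 reads in each library. The adhesion gene Cdh1 did not follow the sum, with 3.44 and 2.44 CPM in transgenic, 1.82 and 2.70 CPM in vehicle and 1.74 and 1.69 CPM in progesterone tumours. The table holds only genes with at least 1 read, so none of the 8 could be at 0 in all 6 libraries. The fixed markers Csn2 and Wap were not in the table. Tumour and host RNA were counted together, so the sum is not a measure of mammary cells alone. Whether mammary cells added to the Pgr reads was not tested.

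**Figure D1:**
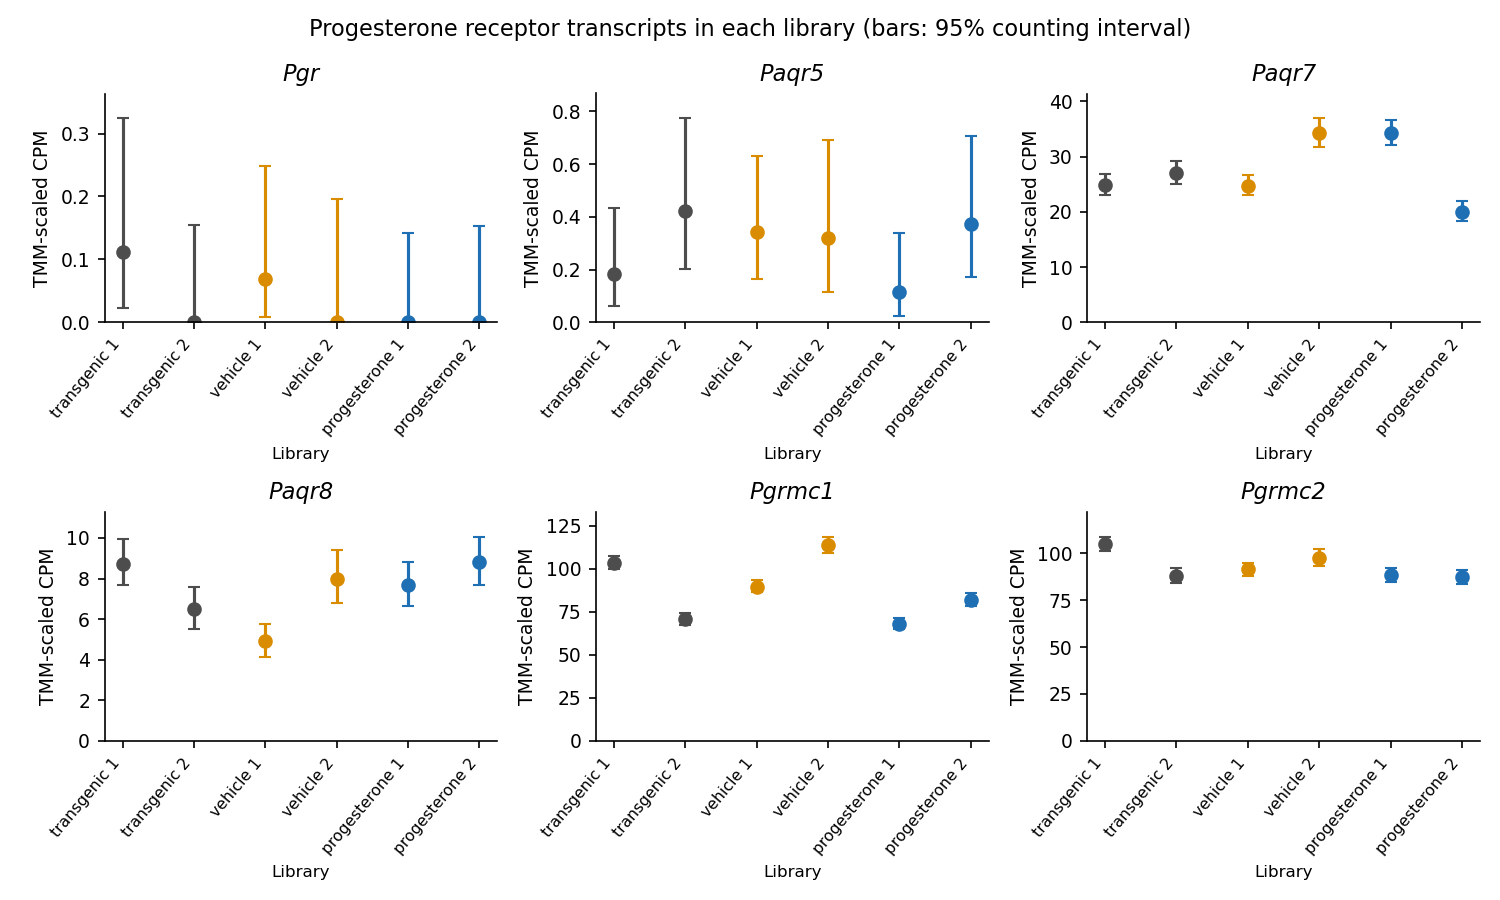
TMM-scaled CPM of each receptor gene (vertical axis, starting at 0, a different scale in each panel) in the 6 libraries (horizontal axis). Points are single libraries, coloured by group, and bars are 95% counting intervals. Pgr stays at or below 0.111 CPM, and for Paqr7 the highest and the lowest library are both progesterone tumours.

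Among the membrane progestin receptors, Paqr5 (ENSMUSG00000032278, chromosome 9, 61953481 to 62026856, minus strand), known from kidney and other epithelia, was near the limit of counting. Its reads numbered 5 and 10 for transgenic tumours, 10 and 6 for vehicle tumours, and 3 and 9 for progesterone tumours. Values of the 3 groups overlapped. Pooled over 2 libraries the level was 0.297 CPM in transgenic (95% interval 0.166 to 0.491), 0.323 in vehicle (0.184 to 0.524) and 0.246 in progesterone tumours (0.127 to 0.429). It too failed the count filter. Fitted without a filter, its log2 fold change was -0.45 with a standard error of 1.09 between progesterone and vehicle tumours (edgeR adjusted p = 1.0), too wide to place it.

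Paqr7 (ENSMUSG00000037348, chromosome 4, 134496697 to 134510235, plus strand), a receptor first described for rapid progestin signalling in fish oocytes, was the most abundant of the PAQR members. It had 24.8 and 27.1 CPM in the transgenic tumours, 24.8 and 34.2 CPM in the vehicle tumours and 34.3 and 20.0 CPM in the progesterone tumours. The progesterone group thus held both the highest and the lowest library, and their counting intervals, 32.0 to 36.6 and 18.3 to 21.9 CPM, did not meet. The spread within that pair, 1.71-fold, was the whole range over the 6 libraries. The log2 fold change was 0.18 ± 0.30 (SE) between vehicle and transgenic, -0.12 ± 0.30 between progesterone and vehicle, and 0.07 ± 0.30 between progesterone and transgenic tumours, with edgeR adjusted p of 0.975, 0.999 and 0.996. Its direction hung on single libraries. The first was -0.068 without vehicle replicate 2, the second 0.13 without vehicle replicate 2 and 0.22 without progesterone replicate 2, and the third -0.37 without progesterone replicate 1.

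Paqr8 (ENSMUSG00000025931, chromosome 1, 20890606 to 20939650, plus strand), a close relative that is abundant in brain, had 8.74 and 6.49 CPM in the transgenic, 4.90 and 8.001 CPM in the vehicle and 7.69 and 8.81 CPM in the progesterone tumours. Vehicle library 1 was the lowest and progesterone library 2 the highest, and all 3 groups overlapped. The log2 fold change of progesterone against vehicle tumours was 0.36 ± 0.37 (SE), with a 95% interval of -0.52 to 1.23 (edgeR adjusted p = 0.999). Without vehicle replicate 1 it was 0.04. Vehicle against transgenic gave -0.24 ± 0.37 (edgeR adjusted p = 0.973), and 0.071 without vehicle replicate 1. Progesterone against transgenic gave 0.11 ± 0.37 (edgeR adjusted p = 0.995), and -0.084 without transgenic replicate 2. Paqr8 was the least abundant member past the filter, and its intervals were the widest among those members. What set their width was not tested. A small nucleolar RNA gene lies within Paqr8 and a small RNA gene within Paqr5, both on the opposite strand, and whether counting used the strand is not given in the sources used here.

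Pgrmc1 (ENSMUSG00000006373, X chromosome, 36598206 to 36606079, plus strand), which binds haem and has been tied to progesterone's effects on survival of granulosa and tumour cells, had 103 and 70.9 CPM in the transgenic tumours. In vehicle tumours it had 89.6 and 114 CPM, and in progesterone tumours 68.0 and 82.1 CPM. Both vehicle libraries lay above both progesterone libraries, and the transgenic pair spanned much of the range. The log2 fold change of progesterone against vehicle tumours was -0.44 ± 0.23 (SE), with a 95% interval of -0.98 to 0.10 and an unadjusted p of 0.0967 (edgeR adjusted p = 0.953). It did not pass the test and stayed between -0.60 and -0.26 when each library was left out in turn. In the same libraries the summed level of 6 macrophage markers was 2421 and 2093 CPM in progesterone against 1228 and 1521 CPM in vehicle tumours, and that of 5 mast cell markers 78.9 and 178 against 25.2 and 28.4 CPM. The part of these cells in the Pgrmc1 difference was not tested. Ranked by unadjusted p Pgrmc1 stood 1382nd of 13632 genes. Vehicle against transgenic gave 0.22 ± 0.23 (edgeR adjusted p = 0.959), or -0.024 without transgenic replicate 2. Progesterone against transgenic gave -0.22 ± 0.23 (edgeR adjusted p = 0.976), or 0.083 without transgenic replicate 1.

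Pgrmc2 (ENSMUSG00000049940, chromosome 3, 41066326 to 41083046, minus strand), a haem chaperone related to Pgrmc1, was the steadiest member. It had 105 and 88.1 CPM in the transgenic, 91.5 and 97.7 CPM in the vehicle and 88.2 and 87.3 CPM in the progesterone tumours. The highest library was 1.20 times the lowest, against 1.67 times for Pgrmc1, 1.71 times for Paqr7 and 1.80 times for Paqr8. Both progesterone libraries lay below both vehicle libraries, but by little. The log2 fold change was -0.11 ± 0.15 (SE) for progesterone against vehicle, -0.03 ± 0.15 for vehicle against transgenic and -0.14 ± 0.15 for progesterone against transgenic tumours. The second of these was 0.10 without transgenic replicate 1 and 0.02 without vehicle replicate 1. The edgeR adjusted p were 0.999, 0.995 and 0.982. On the linear scale the 95% intervals of these differences ran from 0.724 to 1.19, from 0.764 to 1.26 and from 0.709 to 1.17 times.

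Set per length, the order of the members was the same in each of the 6 libraries. Pgrmc1 led, at 47.4 ± 9.73 CPM per kilobase (SD, n = 6 libraries), followed by Pgrmc2 at 28.7 ± 2.17, Paqr7 at 6.46 ± 1.34, Paqr8 at 1.36 ± 0.273, Paqr5 at 0.0740 ± 0.0297 and Pgr at 0.00350 ± 0.00565. Neighbours in this order did not overlap in their ranges. The lowest Pgrmc1 library had 36.6 and the highest Pgrmc2 library 32.4 CPM per kilobase, while Paqr7 lay between 4.70 and 8.04, Paqr8 between 0.894 and 1.60, Paqr5 between 0.0293 and 0.107 and Pgr between 0 and 0.0130. Among the 19284 genes with an annotated length, Pgrmc1 stood at the 95.1st percentile of mean level per length, Pgrmc2 at the 90.4th, Paqr7 at the 64.6th and Paqr8 at the 45.9th. Paqr5 was at the 27.04th and Pgr at the 3.91st. With the length of the longest annotated transcript in place of merged exons, an alternative chosen after seeing the data, the order was the same and the lowest Pgrmc1 library (36.6) was still above the highest Pgrmc2 library (34.9).

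**Figure D2:**
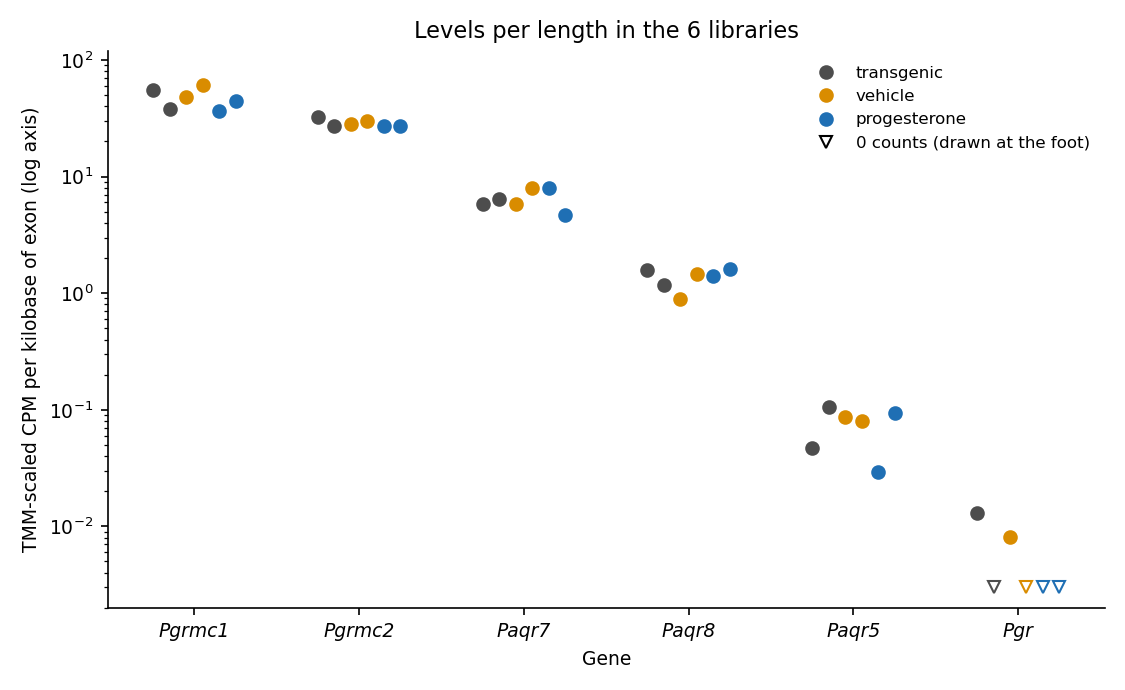
TMM-scaled CPM per kilobase of merged exon (vertical, log axis) for each of the 6 genes (horizontal), with 1 point per library coloured by group. Open triangles at the foot stand for libraries with 0 reads. The members' ranges do not overlap, from Pgrmc1 at 36.6 to 61.3 down to Pgr at 0 to 0.0130.

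The makeup of the receptor transcripts within a library does not depend on how libraries are scaled. Pgrmc1 made up 49.97% to 60.7% of the summed level per length of the 6 members, Pgrmc2 29.8% to 37.2%, Paqr7 6.06% to 11.0% and Paqr8 1.07% to 2.07%. Paqr5 was at most 0.146% and Pgr at most 0.0136%. The ratio of Pgrmc1 to Pgrmc2 per length was 1.72 and 1.41 in the transgenic tumours, 1.71 and 2.03 in the vehicle tumours and 1.35 and 1.64 in the progesterone tumours. Both vehicle libraries lay above both progesterone libraries in this ratio, and transgenic library 1 was above one of the vehicle libraries. Pgrmc2 varied only 1.20-fold over the libraries, so the ratio largely repeats the Pgrmc1 values. These 2 groups did not overlap for 36.2% of all genes. Paqr7 exceeded Paqr8 in every library, by 2.93 to 6.51 times per length. Paqr8's share was higher in both progesterone libraries (1.91% and 2.07%) than in the other 4 (1.07% to 1.67%). Its own CPM overlapped between the groups. A share also depends on the summed level of the 6 members. That was 95.5 and 73.0 CPM per kilobase in transgenic, 83.3 and 101 in vehicle and 73.3 and 77.5 in progesterone tumours. How often other genes separate in this way was not counted. These are descriptions with no test.

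**Figure D3:**
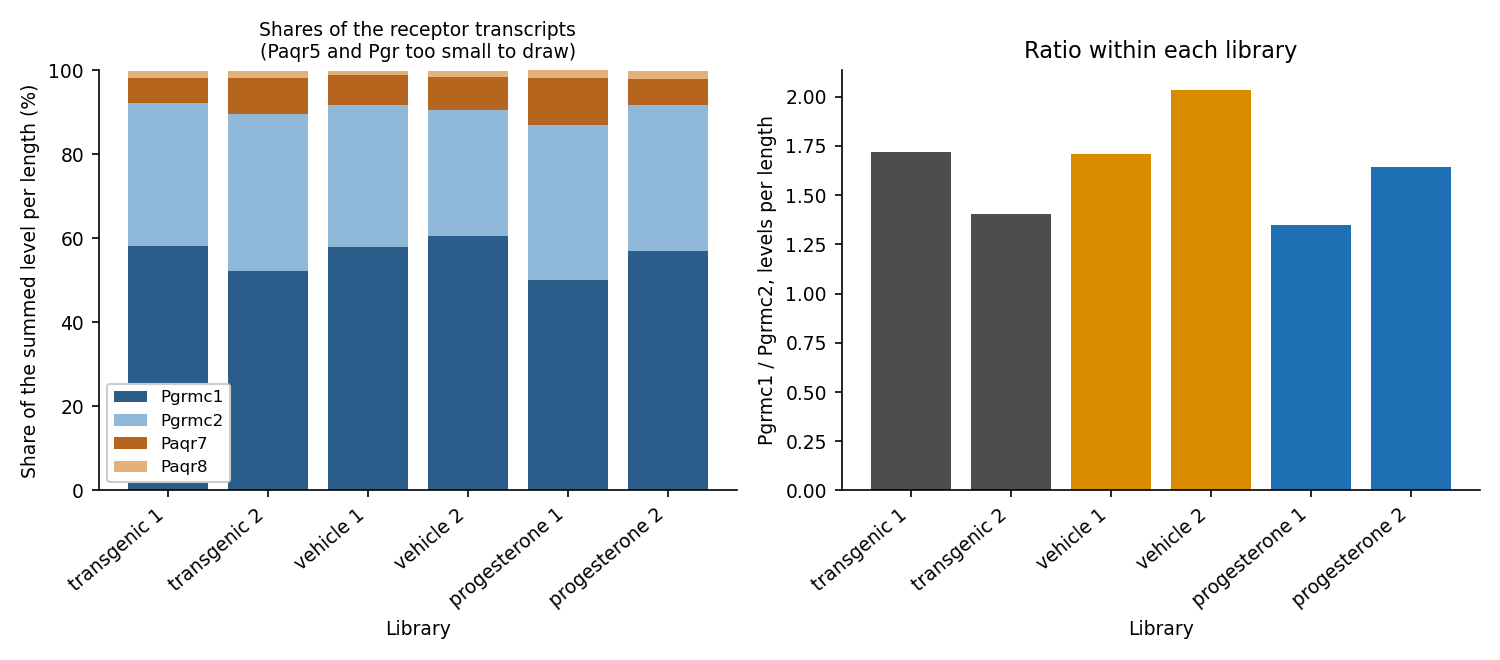
Left, the share of each member in the summed CPM per kilobase (vertical, percent) for the 6 libraries. Right, the level of Pgrmc1 per length divided by that of Pgrmc2 in each library, coloured by group. Pgrmc1 and Pgrmc2 fill most of every bar, and the ratio runs from 1.35 in progesterone library 1 to 2.03 in vehicle library 2.

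Across the 3 comparisons, 4 of the 6 members passed the filter and could be tested. The vehicle against transgenic comparison asks what changed with ovariectomy and vehicle, which cannot be told apart here. Of the 4 members 0 were called by edgeR's quasi-likelihood test at an adjusted p under 0.05, 0 had an unadjusted p under 0.05, and limma-voom and DESeq2 also called 0. Over all 13632 genes edgeR called 0.0%, 5.57% had an unadjusted p under 0.05, limma-voom called 0 genes and DESeq2 called 63. The groups of 0 members were free of overlap, against 35.6% of all genes.

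Progesterone against vehicle tumours, the comparison of the hormone itself in ovariectomized hosts, gave the same counts: 0 of 4 members called, 0 with an unadjusted p under 0.05, and 0 by limma-voom or DESeq2. Of all genes edgeR called 0.0%, 5.29% had an unadjusted p under 0.05, limma-voom called 0 and DESeq2 72. Pgrmc1 and Pgrmc2 had groups that did not overlap, both lower in the progesterone tumours. Non-overlap was common among all genes, at 36.2% in either direction and 17.8% lower, so 2 of 4 is no result about the members. Progesterone against transgenic tumours had 0 of 4 members called, 0 with an unadjusted p under 0.05, 0 by the other tools and 0 without overlap. Of all genes 0.0% were called by edgeR, 5.27% had an unadjusted p under 0.05, limma-voom called 0, DESeq2 called 46, and 29.0% did not overlap. The vehicle tumours enter the first 2 comparisons and the other groups 2 each, so the comparisons are not independent.

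A p that misses the threshold does not show that levels were alike, and the intervals say how far apart they could be. The 95% interval of the log2 fold change lay wholly within 1 of 0, that is within 2-fold, for 3 of 4 members in vehicle against transgenic, 3 of 4 in progesterone against vehicle and 4 of 4 in progesterone against transgenic tumours. Among all genes this held for 58.4%, 59.8% and 59.3%. Paqr8 was the exception in the first 2, with intervals reaching -1.12 and 1.23. Only Pgrmc2 was held within 2-fold in all 3 comparisons under each of the 6 leave-one-out fits. The count fell to 1 of 4 in vehicle against transgenic without transgenic replicate 1 or vehicle replicate 1, and to 2 without transgenic replicate 2 or vehicle replicate 2. It fell to 1 in progesterone against vehicle without vehicle replicate 1 or progesterone replicate 1, and to 2 without vehicle replicate 2 or progesterone replicate 2. In progesterone against transgenic it fell to 1 without progesterone replicate 2, to 2 without progesterone replicate 1 or transgenic replicate 2, and to 3 without each of the other libraries.

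**Figure D4:**
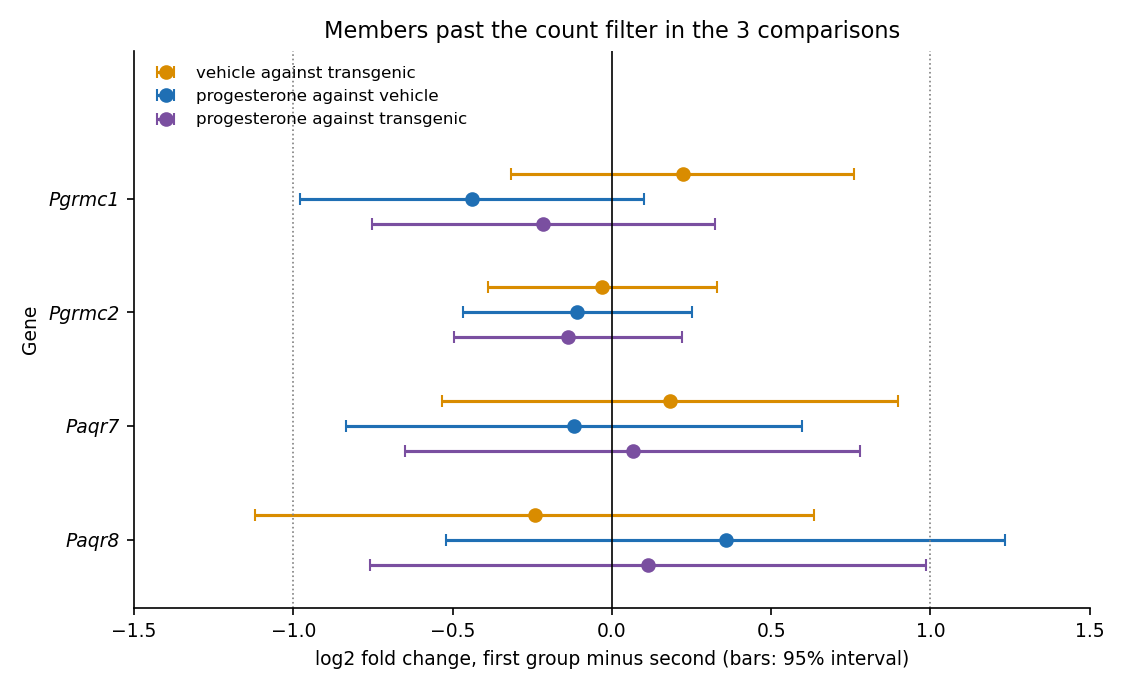
Log2 fold change (horizontal, first-named group minus second) of the 4 members past the count filter (vertical), for the 3 comparisons in 3 colours. Points are edgeR estimates and bars are 95% intervals. Every interval crosses 0, and those of Paqr8 reach past the dotted lines at -1 and 1 in vehicle against transgenic (-1.12) and progesterone against vehicle (1.23).

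Genes whose pattern over the 6 libraries was most like each member's were found by the root mean square difference of centred log2 CPM among 13011 genes with an informative symbol. Nearest to Pgrmc1 were Dcun1d5, a gene of the neddylation machinery, at 0.0477, and the Wnt co-receptor Ryk at 0.0635, against 0.269 for the spread of Pgrmc1 around its own mean. For Pgrmc2 the death receptor kinase Ripk1 was nearest (0.0340). Since Pgrmc2 varied so little, at 0.0969, there were 443 genes within 0.1 of it. Paqr7 was closest to the phosphomannomutase Pmm1 (0.0395) and to Trp53i13 (0.0739), and Paqr8 to the oligosaccharyltransferase subunit Magt1 (0.114) and the chromatin-binding Psip1 (0.115). The members were not each other's neighbours. Pgrmc2 was 448th in nearness to Pgrmc1, and Paqr8 was 7681st in nearness to Paqr7.

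The relatives of the members were read next. Of 10 genes of the MAPR family (to which the Pgrmc proteins belong) and the PAQR family, 7 passed the filter and 0 were called in any comparison by edgeR, limma-voom or DESeq2, with 0 at an unadjusted p under 0.05. The median log2 fold change was 0.18 in vehicle against transgenic, 0.02 in progesterone against vehicle and 0.10 in progesterone against transgenic tumours, beside -0.01, 0.01 and 0.01 over all genes. Each of these list medians changed sign with 1 library left out. The first was -0.043 without transgenic replicate 2 and 0.067 without vehicle replicate 1. The second was -0.014 without progesterone replicate 1, 0.008 without vehicle replicate 1, 0.035 without vehicle replicate 2 and 0.073 without progesterone replicate 2. The third was -0.094 without transgenic replicate 2, -0.074 without progesterone replicate 1, 0.19 without transgenic replicate 1 and 0.17 without progesterone replicate 2. The neurotrophic Nenf, a secreted member of the MAPR family, had 49.8 and 28.4 CPM in transgenic, 44.0 and 44.4 in vehicle and 43.7 and 42.2 in progesterone tumours. Only transgenic library 2 was low. The adiponectin receptors Adipor1 and Adipor2 lay between 131 and 193 CPM and between 104 and 150 CPM. Paqr4 had 13.0 and 20.1 CPM in transgenic, 10.2 and 12.2 in vehicle and 11.7 and 11.0 in progesterone tumours, and Paqr3, a Golgi protein that tethers RAF, 8.33 and 4.89, 9.22 and 8.16, and 11.4 and 10.3. Paqr3 overlaps Bmp2k on the opposite strand, so its counts are uncertain. The 2 further membrane progestin receptors, Paqr6 (mPR delta) and Paqr9 (mPR epsilon), had 19 and 41 reads in all, and 23 of the Paqr9 reads were in transgenic library 1.

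Proteins that work with Pgrmc1 and the membrane receptors include the sigma-2 receptor Tmem97, the RNA-binding Serbp1, the ferrochelatase Fech and the sterol pathway genes Cyp51, Insig1 and Scap. All 9 genes of this list passed the filter and 0 were called by edgeR, limma-voom or DESeq2. An unadjusted p under 0.05 was reached by 1 gene in vehicle against transgenic (Tmem97), 3 in progesterone against vehicle (Insig1 and Cyp51 among them) and 1 in progesterone against transgenic tumours (Tmem97). The shares of all genes with such a p were 5.57%, 5.29% and 5.27% in the same order. In progesterone against vehicle tumours 8 of 9 list genes had a negative estimate, with a median of -0.34. There 51.1% of all genes had a positive estimate, with a median of 0.01. The sterol sensor partner Insig1 had 39.6 ± 3.60 CPM in progesterone and 66.6 ± 19.9 CPM in vehicle tumours (SD, n = 2, log2 fold change -0.75, edgeR adjusted p = 0.932). The list median was -0.11 without vehicle replicate 1 and -0.21 without vehicle replicate 2. Tmem97 had 62.7 and 52.5 CPM in transgenic, 41.4 and 40.7 in vehicle and 41.4 and 37.0 in progesterone tumours, so that both transgenic libraries were above the other 4. Its log2 fold change was -0.49 in vehicle and -0.56 in progesterone against transgenic tumours, with edgeR adjusted p of 0.829 and 0.914. The log2 fold change of Fech in the latter was -0.55 (edgeR adjusted p = 0.914). The list median was 0.12 in vehicle against transgenic tumours, but -0.0030 without vehicle replicate 1, 0.062 without vehicle replicate 2 and 0.21 without transgenic replicate 1. In progesterone against transgenic tumours it was -0.29, or -0.13 without progesterone replicate 2.

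The machinery that Pgr shares with other steroid receptors was present at high levels. The HSP90 genes Hsp90aa1 and Hsp90ab1 lay between 874 and 1345 CPM and between 3712 and 4629 CPM, and the co-chaperones Fkbp4 and Fkbp5 between 227 and 331 and between 157 and 255 CPM. All 11 chaperone genes were tested and 0 were called by edgeR, limma-voom or DESeq2. At an unadjusted p under 0.05 there were 0, 1 (Dnajb1) and 1 (Hsp90aa1) in vehicle against transgenic, progesterone against vehicle and progesterone against transgenic. The shares of all genes with such a p were 5.57%, 5.29% and 5.27% in the same order. List medians were -0.22 in vehicle against transgenic, -0.03 in progesterone against vehicle and -0.22 in progesterone against transgenic tumours. In the last, 10 of 11 estimates were negative, while 51.0% of all genes had a positive one. Medians over all genes were -0.01, 0.01 and 0.01. The second list median was 0.010 without progesterone replicate 2 and -0.12 without progesterone replicate 1. The HSP40 gene Dnajb1 had 123 ± 14.3 CPM in vehicle, 91.8 ± 14.0 in transgenic and 76.4 ± 9.97 in progesterone tumours (log2 fold change -0.68 for progesterone against vehicle, edgeR adjusted p = 0.932). Hsp90aa1 had -0.48 for progesterone against transgenic tumours (edgeR adjusted p = 0.914), and Fkbp4 -0.38 for vehicle against transgenic (edgeR adjusted p = 0.883). All 10 coregulators passed the filter and 0 were called by any of the 3 tools or at an unadjusted p under 0.05, with medians of 0.07, -0.10 and 0.02 in the 3 comparisons in the same order. Each changed sign with 1 library left out. The first was -0.011 without transgenic replicate 1, and ran up to 0.19 without transgenic replicate 2. The second was 0.031 without progesterone replicate 1. The third was -0.0997 without transgenic replicate 1 and -0.0054 without progesterone replicate 2, and 0.10 without transgenic replicate 2 or progesterone replicate 1. The coactivator Ncoa2 had the smallest p in the first 2, with log2 fold changes of 0.22 and -0.14.

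Genes known as targets of Pgr in uterus or breast were looked at although the receptor was near 0. Of 21 fixed genes 20 were in the table and 18 were tested. edgeR and limma-voom called 0, and DESeq2 called 1, Klf9, in progesterone against transgenic tumours, while edgeR without the count filter called 0. At an unadjusted p under 0.05 edgeR had 3 (Cited2, Lrp2 and Bcl6) in vehicle against transgenic, 2 (Klf9 and Errfi1) in progesterone against vehicle and 4 (Klf9, Tnfsf11, Lrp2 and Bcl6) in progesterone against transgenic. The shares of all genes with such a p were 5.57%, 5.29% and 5.27% in the same order. Median log2 fold changes were -0.23, -0.16 and 0.03 for vehicle against transgenic, progesterone against vehicle and progesterone against transgenic tumours. Each of the 3 medians changed sign without 1 of the libraries, with ranges of -0.23 to 0.08, -0.26 to 0.15 and -0.28 to 0.33. The sign changed in the first without transgenic replicate 1 or vehicle replicate 2, in the second without vehicle replicate 1, and in the third without either progesterone library. Klf9, a zinc finger factor also induced by glucocorticoid, had 71.5 and 73.1 CPM in transgenic, 72.0 and 49.1 CPM in vehicle and 39.9 and 32.5 CPM in progesterone tumours. Both progesterone libraries were thus below the other 4. Its log2 fold change was -0.997 ± 0.22 (SE) against transgenic and -0.74 ± 0.22 against vehicle tumours, with edgeR adjusted p of 0.914 and 0.932. The feedback inhibitor of EGF receptor Errfi1 had 310 and 285 CPM in progesterone tumours against 617 and 565 in vehicle tumours, with 562 and 254 in the transgenic pair. Tnfsf11 (RANKL), a mediator of progesterone in breast, had 0.629 and 0.421 CPM in transgenic, 0.857 and 1.96 in vehicle and 2.51 and 3.14 in progesterone tumours. Its log2 fold change was 2.41 ± 0.63 for progesterone against transgenic tumours (edgeR adjusted p = 0.914). In vehicle against transgenic tumours the log2 fold change was 0.72 for the transcriptional cofactor Cited2 (edgeR adjusted p = 0.810) and -2.87 for the endocytic receptor Lrp2 (edgeR adjusted p = 0.827). For Lrp2 transgenic library 2 alone was high, at 60.0 CPM against 2.36 to 5.89 in the others. The uterine target Wnt4 had 1 read in all.

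**Figure D5:**
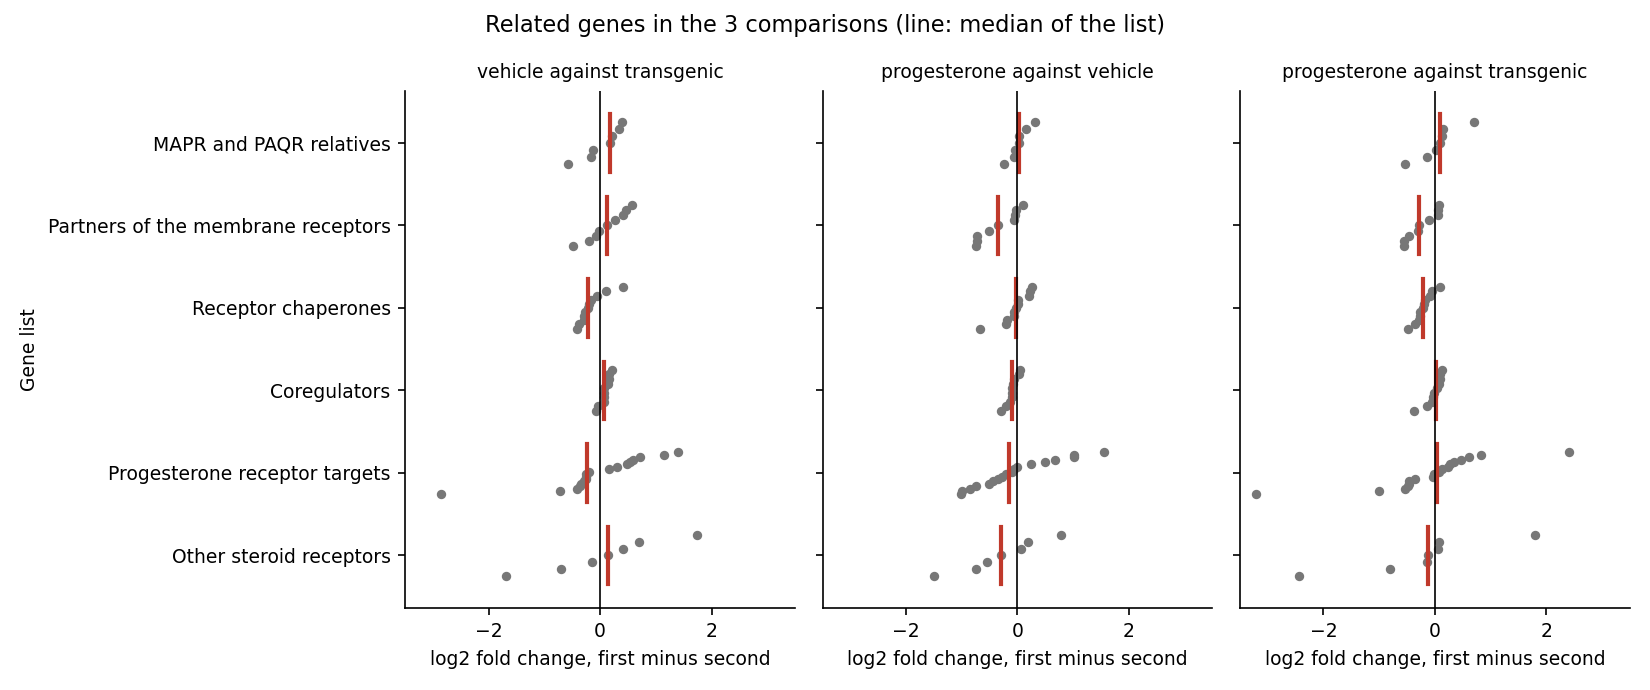
Log2 fold change (horizontal, first-named group minus second) of each tested gene (grey points) in the 6 related lists (vertical), in 1 panel per comparison. Red lines are list medians, which run from -0.34 for partners of the membrane receptors in progesterone against vehicle to 0.18 for MAPR and PAQR relatives in vehicle against transgenic.

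Other receptors that bind steroids were measured in the same libraries. The glucocorticoid receptor Nr3c1, which shares its DNA element with Pgr, had 128 and 157 CPM in transgenic, 170 and 146 in vehicle and 119 and 140 in progesterone tumours. Oestrogen receptor Esr1 had 18.7 and 3.16, 5.66 and 23.6, and 6.61 and 13.4 CPM in the same order, so that each pair differed more than the group means. The oestrogen target Greb1 was high in transgenic library 2 alone, at 67.5 CPM against 2.51 to 18.7 in the others. Esr2 lay between 1.20 and 2.32 CPM, the mineralocorticoid receptor Nr3c2 between 0.193 and 0.785, and the membrane oestrogen receptor Gper1 between 0.116 and 0.901. Of the 7 genes of this list, Greb1 included, 0 were called in any comparison by edgeR, limma-voom or DESeq2 and 0 had an unadjusted p under 0.05. The medians were 0.15, -0.29 and -0.13, with ranges of -0.71 to 0.18, -1.14 to -0.03 and -1.16 to 0.24 when each library was left out. The first changed sign without vehicle replicate 2 and the third without transgenic replicate 1 or progesterone replicate 1, while the second was lowest without progesterone replicate 2.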

How the data were processed

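mRNA of the tumours was sequenced in 6 libraries, 2 per group. The authors deposited raw read counts per gene, with no normalization. HISAT2, HTSeq, DESeq and GRCm38.p6 are named in the submitters' processing notes, while versions, settings and the strand option are unknown here, as no label or header gives them. Per the labels' protocols, 500 ng of total RNA entered a directional kit with 11 PCR cycles.

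Counts were analysed in R 4.3.3 with edgeR 4.0.16. filterByExpr kept 13632 genes, TMM scaled the libraries, and 1 quasi-likelihood model (glmQLFit, glmQLFTest) was fitted to all 6 (residual degrees of freedom: 3). Calls were made where p, adjusted over all genes tested by Benjamini-Hochberg, was under 0.05. Standard errors came from the F statistic, and 95% intervals from the t distribution with edgeR's moderated degrees of freedom. Alternatives were RLE scaling, no filter, DESeq2 1.42.0, limma-voom (limma 3.58.1), only the groups compared, a replicate block and each library left out. Functions were tested on simulated data. Coordinates and lengths are from GENCODE's GRCm38 annotation, which holds 19284 of 19288 gene IDs. Where 1 symbol had more than 1 ID, the ID with the larger total was used.

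Members, 6 related lists and 10 marker lists were chosen with earlier results of these data known. Named genes are the members, their 2 nearest genes by pattern (log2 CPM with a prior count of 2) and, of each related list, called genes or else the 2 smallest unadjusted p per comparison. Relatives and steroid receptors are given as values. Values of 3 genes that this rule names are not reported here. Other genes of the lists (Cyp51, Bcl6, Wnt4, Hsp90ab1, Fkbp5 and the markers) were named after their values were seen.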

Additional observations from a re-analysis of the deposited data

How the results depend on the processing

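Over 12 alternatives for each of 12 log2 fold changes (4 members in 3 comparisons), 144 in all, 0 were called, and the adjusted p ran from 0.390 to 1.0. Direction changed in 10, each of them with a library left out. Ranges over the 6 fits with 1 library left out were, in vehicle against transgenic, -0.024 to 0.52 for Pgrmc1, -0.15 to 0.10 for Pgrmc2, -0.068 to 0.40 for Paqr7 and -0.63 to 0.071 for Paqr8. In progesterone against vehicle they were -0.60 to -0.26, -0.15 to -0.06, -0.55 to 0.22 and 0.04 to 0.75, and in progesterone against transgenic -0.46 to 0.083, -0.26 to -0.00474, -0.37 to 0.40 and -0.084 to 0.35, in the same order. The number of all genes called was 0 in each of these fits. It was 12, 92 and 28 with no filter, and 63, 72 and 46 by DESeq2, for the 3 comparisons in this order. The cause was not tested. With the replicate block 0 genes were called in each comparison. Across genes, deviations of same-numbered libraries correlated at 0.08 between transgenic and vehicle tumours. The correlation was -0.17 between transgenic and progesterone and -0.13 between vehicle and progesterone tumours. With 2 libraries per group these values cannot decide whether equal numbers paired the samples. Scaling by total counts alone moved the mean CPM of 1 member by more than its SD, that of Pgrmc2 in progesterone tumours, from 87.7 to 90.1. Depth limits Pgr and Paqr5, for which differences between groups were not detectable.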

Other observations

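Marker lists of host cells were measured in the same libraries, and edgeR and limma-voom called none of them. DESeq2 called the mast cell proteases Cma1, Cpa3, Mcpt4 and Tpsb2 in progesterone against vehicle and in progesterone against transgenic tumours, and the endothelial gene Cldn5 in both, with Vwf in the first. Without the count filter edgeR also called these 4 proteases in both comparisons, Pi16 of the fibroblast markers in both and Vwf in the first. In progesterone against vehicle, edgeR estimates were positive for 6 of 6 macrophage, 4 of 4 T cell and 4 of 5 mast cell markers. Among endothelial and fibroblast markers they were positive for 2 of 6 and 3 of 7. They were positive for 51.1% of all genes. The part of these cells in the receptor values was not tested. The summed level of 7 fibroblast markers was 7572 and 1811 CPM in transgenic, 6708 and 11397 CPM in vehicle and 4929 and 9405 CPM in progesterone tumours. The 6 macrophage markers summed to 994 and 2192, 1228 and 1521, and 2421 and 2093 CPM, and the 6 endothelial markers to 212 and 262, 223 and 224, and 97.6 and 223 CPM. The 5 mast cell markers summed to 16.4 and 30.7, 25.2 and 28.4, and 78.9 and 178 CPM, highest in the progesterone libraries. At an unadjusted p under 0.05 edgeR had 4 of these 5 in progesterone against vehicle and 4 in progesterone against transgenic tumours. The shares of all genes were 5.29% and 5.27%. Other marker lists had such genes too. Among them were 3 of 6 macrophage and 2 of 6 endothelial markers in progesterone against vehicle tumours. In vehicle against transgenic tumours 3 of 4 T cell markers were among them, beside 5.57% of all genes. The 4 T cell markers summed to 1.07 and 6.24, 0.754 and 0.212, and 3.09 and 2.40 CPM. Adipocyte markers summed to 6.52 to 30.7 CPM, skeletal muscle markers to 5.37 to 15.4 CPM and keratinocyte markers to 0.337 to 1.62 CPM over the 6 libraries. Lung epithelial markers summed to 1.64 to 4.48 CPM, nearly all of it Napsa.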
